A study of Mus musculus with 12 samples.

Results

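The Kruppel-like factors are transcription factors that bind GC-rich and CACCC-type sequences through zinc fingers at their carboxyl end. Described here are Klf2, Klf3, Klf4, Klf5, Klf6, Klf7, Klf9, Klf10, Klf11, and Klf13, which are 10 of the 17 Klf genes with a row in a count table of 34513 mouse genes. They were selected on measured values of these same libraries, namely the untreated level in each line and the change with SX-682 in each line, with no stated threshold. Their levels and changes in those comparisons are therefore given as a description, without p-values. All 10 passed the filter on low counts that left 18338 genes for testing.

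RNA was sequenced from cultures of 3 mouse lines. Melan-A is a nontumorigenic melanocyte line, B16F0 is a tumorigenic melanoma line, and B16F10 is a metastatic line derived from it by serial selection in mice. Each line was cultured without treatment (control) or with SX-682, an antagonist of the chemokine receptors CXCR1 and CXCR2, giving 2 libraries in each of 6 groups. The labels give neither dose nor duration of treatment for these cultures, and they do not say whether the 2 libraries of a group came from separate cultures, so the spread between them may be technical. Each state is represented by 1 line, so tumorigenicity cannot be told apart from other differences between these lines.

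Kruppel-like factors fall into groups by the proteins they recruit. Klf2, Klf4, Klf5, Klf6, and Klf7 act mainly as activators through acetyltransferases, Klf3 represses through the CtBP corepressors, and Klf9, Klf10, Klf11, and Klf13 carry a domain that binds Sin3a and its histone deacetylases. Members compete for similar sites, and together they shape proliferation, quiescence, and differentiation in epithelia, vessels, and blood; Klf4 is best known as a reprogramming factor.

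Library totals ranged from 48876982 to 85322092 counts. All 12 libraries were closest to the other library of their own group, and the 7 melanocyte markers examined were above a floor of 3 counts in every group. Levels are given as CPM, the reads of a gene relative to the library total after scaling for composition. Cxcr2 was counted 34 to 79 times in Melan-A libraries and 0 to 1 times in B16F0 and B16F10 libraries. Cxcr1 was counted 2 to 21 times in Melan-A libraries and 0 to 5 times in B16F0 and B16F10 libraries. The share of counts on mitochondrial genes was higher with SX-682 in every line, with values of 0.756% to 1.02% in control and 0.847% to 1.24% in SX-682 libraries. The part of this share in the changes below was not tested.

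Sequence upstream of the RefSeq start site was examined for the 8 members with a RefSeq promoter entry (GRCm38.p6), all but Klf5 and Klf10. GENCODE starts the gene further upstream, by 893 bases for Klf7, 133 for Klf3, 97 for Klf11, 29 for Klf2, and 7 for Klf6. The 250 bases of Klf7 and part of those of the other 4 thus lie within the GENCODE gene, and they are counted below. The 250 bases before the start were 59.2% to 78.4% G and C in these members, against a median of 52.0% over all 27025 promoters. Both strands were searched. The GC box GGGCGG, a site of SP and KLF proteins, was present in 7 of 8, all but Klf9, and in 32.9% of all promoters. The CCAAT box, bound by the trimeric factor NF-Y, was present in Klf6, Klf9, Klf11, and Klf13, which is 4 of 8, and in 34.5% of all promoters. The E-box CACGTG was present in Klf4, Klf6, and Klf11, which is 3 of 8, and in 6.05% of all promoters. The CACCC motif was present in 5 of 8 and in 51.3% of all promoters. No match was found for TATAAA, present in 13.0% of all promoters, for TGACGTCA, in 1.62%, or for TGATGNAA, in 3.53%. The shorter site TGACG, which lies within TGACGTCA, was present in 4 of 8 and in 17.9%, and TGANTCA in 1 of 8 and in 6.87%. Matches of different motifs can share bases. The motifs were chosen with the changes of these genes known, and a match is a description of the letters only.

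Windows of 120 bases are shown for Klf6, Klf9, and Klf11, which were higher with SX-682 in all 3 lines, and for Klf2, which was lower in all 3 lines. Capitals mark the CCAAT box or its reverse complement ATTGG. Every window ends before both the RefSeq and the GENCODE start of the gene.
Klf6 (chr13:5861362-5861481, plus strand): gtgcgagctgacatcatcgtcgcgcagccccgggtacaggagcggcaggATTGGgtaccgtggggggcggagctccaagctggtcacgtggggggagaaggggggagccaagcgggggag
Klf9 (chr19:23141106-23141225, plus strand): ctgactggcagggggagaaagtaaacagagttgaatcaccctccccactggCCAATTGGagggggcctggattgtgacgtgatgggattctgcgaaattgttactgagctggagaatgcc
Klf11 (chr12:24651154-24651273, plus strand): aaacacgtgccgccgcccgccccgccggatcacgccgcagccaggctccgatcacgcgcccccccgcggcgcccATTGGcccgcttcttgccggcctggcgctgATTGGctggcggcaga
Klf2 (chr8:72318913-72319032, plus strand): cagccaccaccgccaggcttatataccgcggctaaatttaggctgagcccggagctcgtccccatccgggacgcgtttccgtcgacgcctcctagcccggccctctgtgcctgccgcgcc
The windows hold 1 CCAAT box in Klf6, 2 overlapping boxes in Klf9, 2 in Klf11, and none in Klf2. Klf7, which was also higher in all 3 lines, has no CCAAT box in its 250 bases and no window, because GENCODE places its start 893 bases further upstream. Klf13, not shown, has 2 CCAAT boxes in its 250 bases and log2 fold changes of 0.17, 0.13, and 0.08 in Melan-A, B16F0, and B16F10. Klf3, lower in Melan-A and B16F0, and Klf4, higher in Melan-A and B16F10 but lower in B16F0, have none. Whether the CCAAT box goes with the change was not tested.

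The untreated lines differed first in Klf6. Melan-A controls held 1.05 and 0.815 CPM of Klf6 (91 and 74 counts), B16F0 controls 212 and 207 CPM, and B16F10 controls 215 and 219 CPM. Klf6 was thus 225-fold higher in B16F0 (log2 difference 7.81 ± 0.059, SE) and 233-fold higher in B16F10 (7.86 ± 0.059) than in Melan-A. The level of Klf6 in Melan-A libraries was 0.33% of that in B16 libraries. Of 1807 genes with at least 100 CPM in every B16 library, Galk1 had the lowest relative level in Melan-A, 0.0017% of that in B16, with 0 to 1 counts. The part of reads carried over between libraries in the Klf6 counts of Melan-A was not tested.

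Klf2, Klf4, and Klf5, activators that are prominent in endothelium and epithelia, went the other way. Klf4 was 42.2 and 42.9 CPM in Melan-A controls, 6.81 and 6.69 CPM in B16F0, and 2.05 and 2.16 CPM in B16F10. Klf2 was 29.2 and 36.5 CPM in Melan-A, 4 and 3.57 CPM in B16F0, and 1.46 and 2.19 CPM in B16F10. Klf5 was 14.1 and 13.5 CPM in Melan-A, 1.74 and 2.07 CPM in B16F0, and 0.430 and 0.438 CPM in B16F10, where 26 and 28 reads were counted. For each of these genes the 3 lines did not overlap, and the order was Melan-A, then B16F0, then B16F10. The share of all genes without overlap is not given, and 2 libraries per line separate easily. These genes were also selected on these levels, so nothing is read from the separation. In B16F0 the level was 8.65-fold lower than in Melan-A for Klf2, 6.3-fold lower for Klf4, and 7.27-fold lower for Klf5. In B16F10 it was 17.9-fold, 20.2-fold, and 31.6-fold lower, respectively.

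The other members differed less. Klf3, the CtBP-type repressor, was 37.8 to 39.2 CPM in Melan-A, 54.7 to 57.3 CPM in B16F0, and 59.2 to 59.7 CPM in B16F10, and was the only member besides Klf6 called higher in both B16 lines. Klf9, a target of glucocorticoid and thyroid hormone receptors, was 24.4 to 25.5 CPM in Melan-A and 25.9 to 26.2 CPM in B16F0, but 10.8 to 11.5 CPM in B16F10. Klf10, an early gene of TGF-beta signaling, was 83.0 to 83.8 CPM in Melan-A and 44.4 to 47.0 CPM over both B16 lines, whose libraries overlapped each other. Klf7, Klf11, and Klf13 were lower in both B16 lines, with log2 differences from Melan-A of -1.10 and -0.91 for Klf7, -0.58 and -0.72 for Klf11, and -0.65 and -0.44 for Klf13 in B16F0 and B16F10.

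Counted by edgeR's quasi-likelihood test at an adjusted p of 0.05, 2 members were called higher and 7 lower in untreated B16F0 than in Melan-A, where 35.3% and 40.6% of all genes tested were called higher and lower. In B16F10 against Melan-A, 2 were called higher and 8 lower, where the shares of all genes were 33.4% and 40.8%. In B16F10 against B16F0, 2 members, Klf7 and Klf13, were called higher and 4, Klf2, Klf4, Klf5, and Klf9, lower, where the shares were 30.8% and 31.2%. The first 2 comparisons share the Melan-A controls. In B16F10 against B16F0, Klf3 was also called higher without Melan-A control replicate 1, B16F0 control replicate 1, or either SX-682 library of B16F0, and Klf6 without B16F0 SX-682 replicate 2. Klf11 was also called lower where every library had to hold at least 10 counts, and with a log2 limit of 0.5 the calls of Klf7 and Klf13 were lost, leaving 4 in place of 6. The median log2 difference of the members was -0.76, -0.89, and -0.07 in these comparisons, beside -0.06, -0.1, and -0.002 over all genes.

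**Figure D1:**
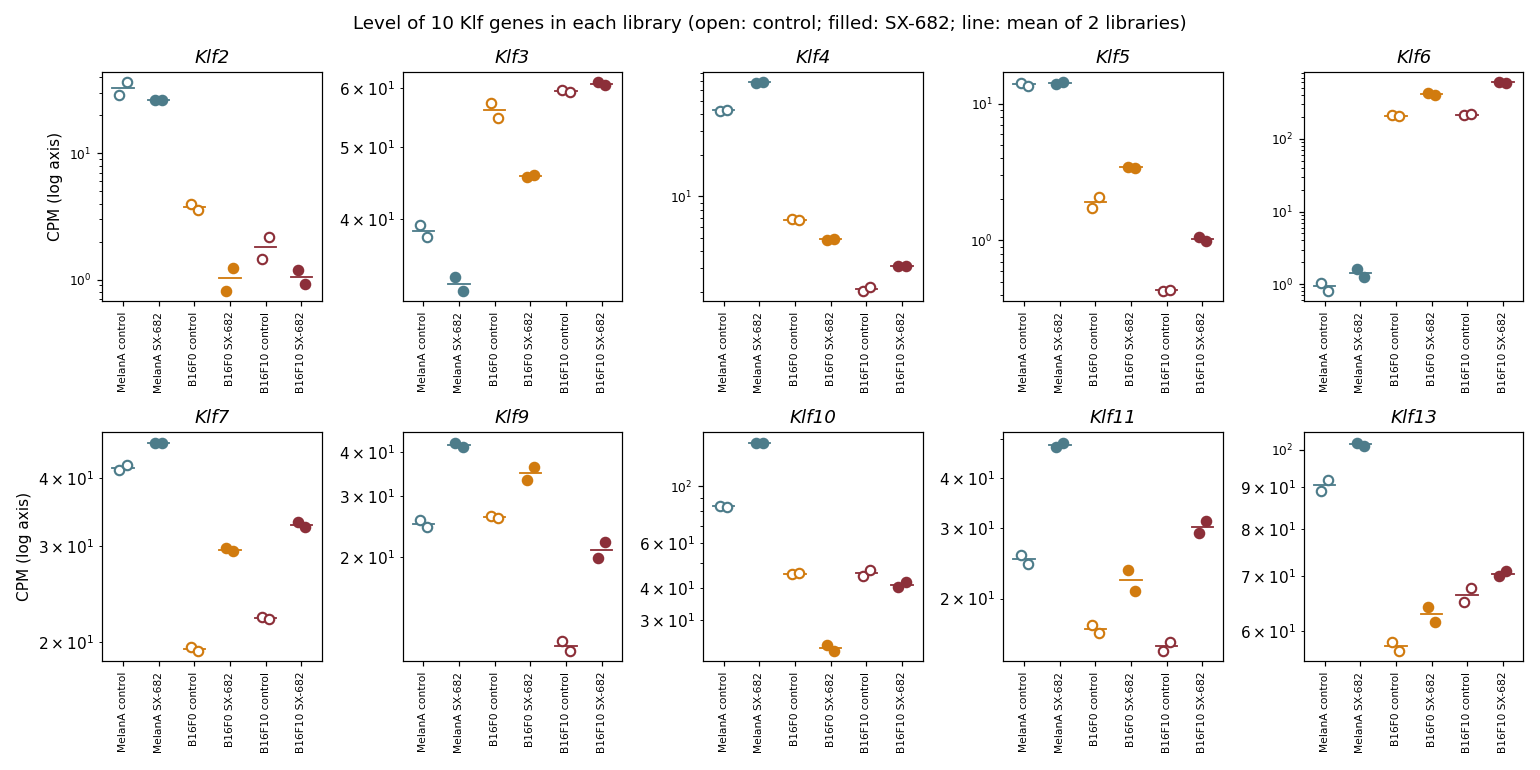
Level of each member in all 12 libraries, in CPM on a log axis that differs between panels, with open circles for control, filled circles for SX-682, and a line at the mean of the 2 libraries. Klf6 lies between 0.815 and 1.60 CPM in Melan-A and between 207 and 604 CPM in B16F0 and B16F10, whereas Klf2, Klf4, and Klf5 are highest in Melan-A.

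**Figure D2:**
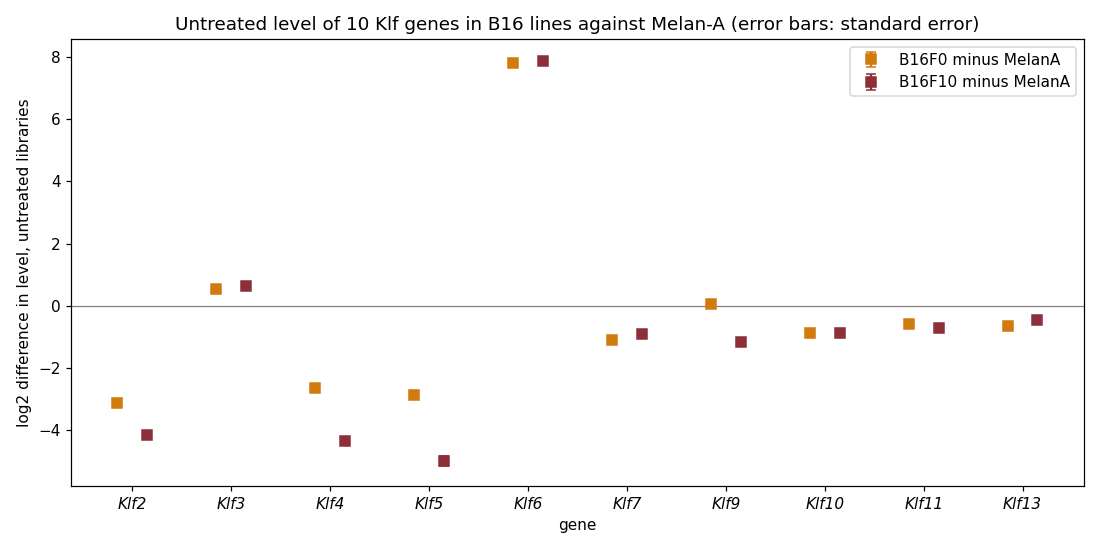
Log2 difference in the untreated level of each member between B16F0 or B16F10 and Melan-A; the bars are the standard error of the fit and are mostly hidden by the squares. Klf6 stands at 7.81 and 7.86, and Klf5 in B16F10 is lowest at -4.98.

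Markers of other cell types moved with these line differences. The 5 fibroblast markers (Col1a1, Col1a2, Dcn, Lum, and Pdgfra) summed to 60.6 to 60.9 CPM in Melan-A controls, with 5 of 5 above the floor, against 15.9 to 16.6 CPM in B16F0 and 8.42 to 9.72 CPM in B16F10, with 3 of 5 above it. Col1a1 made up most of the Melan-A sum, at 45.7 to 47.1 CPM over all libraries of the line. Col1a2 went the other way, with 0.200 to 0.914 CPM in Melan-A, 1.64 to 2.72 CPM in B16F0, and 3.38 to 5.79 CPM in B16F10, and Pdgfra was higher in B16F0 (5.60 to 8.38 CPM) than in Melan-A (3.62 to 4.80 CPM). The 5 keratinocyte markers summed to 5.43 to 5.93 CPM in Melan-A, to 0 in B16F0, and to 0.360 to 0.480 CPM in B16F10. Krt10 (2.27 to 3.28 CPM) and Trp63 (0.693 to 2.54 CPM) made up most of the Melan-A sum, over all libraries of the line. Krt14 was higher in B16F10 (0.282 to 0.676 CPM) than in Melan-A (0.0881 to 0.255 CPM), and Krt5 and Krt1 had at most 0.0825 CPM in any library. The 4 endothelial markers summed to 1.45 to 1.72 CPM in Melan-A, 0.0934 to 0.164 CPM in B16F0, and 0.0626 to 0.116 CPM in B16F10. The 4 leukocyte markers with a row summed to 7.13 to 7.19 CPM in Melan-A and to at most 0.454 CPM in the B16 controls. The 7 melanocyte markers summed to 1340 to 1370 CPM in Melan-A, 18600 to 18700 CPM in B16F0, and 24400 to 24500 CPM in B16F10. Over all libraries of a line, the pigment genes Tyr and Pmel were at 0.253 to 0.892 and 7.53 to 8.70 CPM in Melan-A, the lowest of the lines. Sox10, a lineage transcription factor, went the other way, with 655 to 753 CPM in Melan-A, 351 to 460 CPM in B16F0, and 471 to 589 CPM in B16F10. The part of these differences in the levels of the members was not tested. In bulk samples, fewer cells of a type and less RNA per cell cannot be told apart.

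Per kilobase of exon, which allows levels to be compared between genes, the 10 members summed to similar levels in the untreated lines but were composed differently. Melan-A controls summed to 86.1 ± 2.6 CPM per kilobase, B16F0 controls to 87.5 ± 1.4, and B16F10 controls to 84.8 ± 1.6 (SD, n = 2 each). The libraries of Melan-A overlapped those of both B16 lines. Klf6 made up 0.248% ± 0.052 of this sum in Melan-A, whereas its share was 54.5% ± 0.050 in B16F0 and 58.3% ± 0.39 in B16F10. Without Klf6, Melan-A summed to 85.8 ± 2.6 CPM per kilobase, B16F0 to 39.8 ± 0.60, and B16F10 to 35.4 ± 0.98.

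In Melan-A controls Klf10 was the highest member at 20 CPM per kilobase, followed by Klf2 at 17.8, Klf4 at 13.9, and Klf13 at 12. Klf11, Klf9, Klf7, Klf3, Klf5, and Klf6 followed, and of all neighbors in this order only Klf9 at 5.18 and Klf7 at 5.13 overlapped. In B16F0 and B16F10 controls the order began with Klf6 at 47.7 and 49.5, Klf10 at 10.9 in both, and Klf13 at 7.64 and 8.83 CPM per kilobase. It ended with Klf5 at 0.366 and 0.0834, and no neighbors overlapped. These orders depend on the length used. With the longest transcript as length, Klf3 (10.7 and 11.4) stood above Klf13 (9 and 10.4) in B16F0 and B16F10 controls. In Melan-A controls, Klf3 (7.38) then stood above Klf11 (6.12), and Klf13 (14.1) and Klf4 (14) were nearly equal. With SX-682 Melan-A summed to 117 ± 0.078 CPM per kilobase, B16F0 to 131 ± 4.1, and B16F10 to 178 ± 0.44. Klf6 then made up 72.0% ± 0.65 in B16F0 and 76.6% ± 0.55 in B16F10, but 0.278% ± 0.046 in Melan-A. Without Klf6, the sum with SX-682 was 36.8 ± 0.30 in B16F0 and 41.8 ± 0.88 in B16F10.

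**Figure D3:**
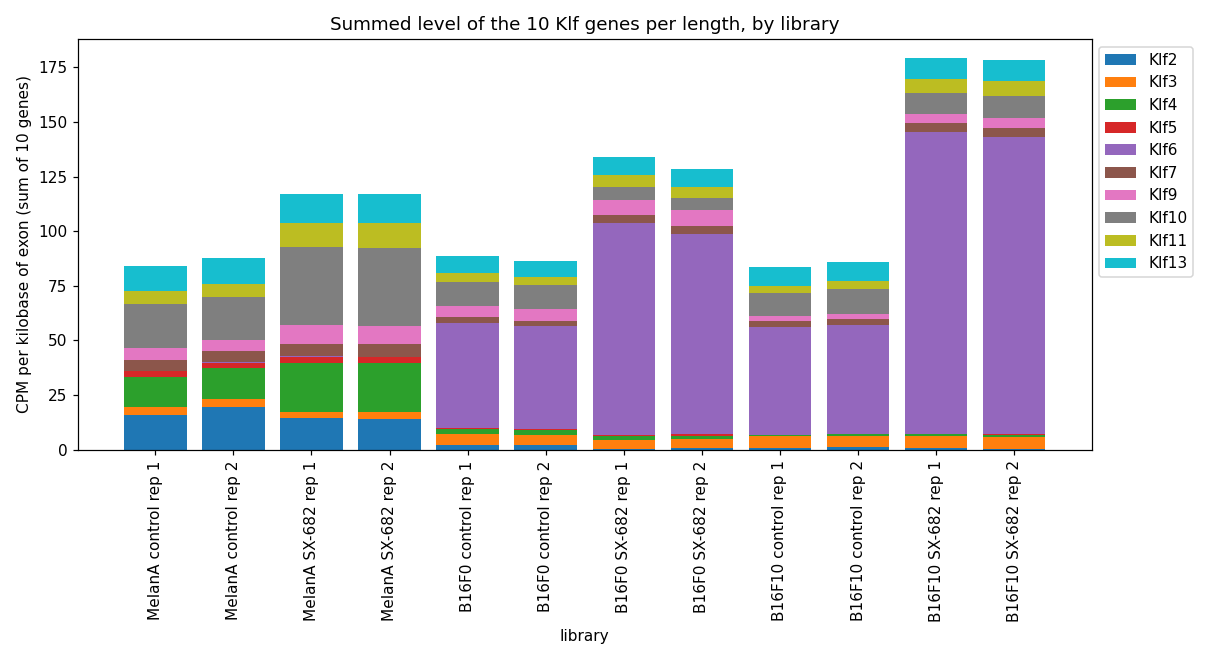
Stacked level of the 10 members in each library, in CPM per kilobase of exon, with 1 bar per library and 1 color per gene. Control bars are of similar height, 86.1, 87.5, and 84.8 on average, but Klf6 fills 54.5% and 58.3% of the bar in B16F0 and B16F10 and 0.248% in Melan-A.

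After SX-682, 7 members were called higher and 2 lower in Melan-A, where 23.4% and 24.7% of all genes were called higher and lower. In B16F0, 6 were higher and 4 lower, beside 25.1% and 25.0% of all genes, and in B16F10, 6 were higher and 2 lower, beside 25.5% and 25.3%. In all 3 lines together, Klf6, Klf7, Klf9, and Klf11 were higher, 4 of 10 beside 11.3% of all genes, and Klf2 was lower, 1 of 10 beside 11.7%. These contrasts were used to select the members, so nothing is read from these shares. The median log2 fold change of the members was 0.39, 0.27, and 0.56 in Melan-A, B16F0, and B16F10, beside a median of 0 over all genes in each line. SX-682 and control libraries of a line overlapped only for Klf5 in Melan-A. The share of all genes without overlap is not given, and 2 libraries against 2 separate easily. The members were also selected on these changes, so nothing is read from the separation.

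Markers of cell type moved with treatment as well. With SX-682 the melanocyte markers summed to 1350 to 1360 CPM in Melan-A, beside 1340 to 1370 CPM in control, but to 15800 to 16000 CPM in B16F0, beside 18600 to 18700 CPM, and to 14900 to 15200 CPM in B16F10, beside 24400 to 24500 CPM. In Melan-A the fibroblast markers summed to 52.9 to 53.4 CPM, the keratinocyte markers to 3.24 to 3.45 CPM, and the leukocyte markers to 4.49 to 4.92 CPM, all lower than in control, and the endothelial markers to 2.08 to 2.43 CPM, higher than in control. In B16F0 the endothelial markers went from 0.0934 to 0.164 CPM in control to 0.622 to 1.10 CPM with SX-682, with 1 of 4 above the floor in both groups, and the leukocyte markers from 0.147 to 0.238 CPM to 0.374 to 0.410 CPM. The fibroblast markers of B16F0 summed to 16.2 to 16.7 CPM and the keratinocyte markers to at most 0.0623 CPM with SX-682. In B16F10 with SX-682 the sums were 8.49 to 9.13 CPM for fibroblast, 0.291 to 0.759 CPM for keratinocyte, 0.427 to 0.528 CPM for leukocyte, and 0.0989 to 0.171 CPM for endothelial markers, each overlapping control. The part of these shifts in the changes of the members was not tested.

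Among the activators, Klf6 rose with SX-682 in every line. It went from 1.05 and 0.815 CPM in control to 1.60 and 1.27 CPM with SX-682 in Melan-A, from 212 and 207 to 427 and 403 CPM in B16F0, and from 215 and 219 to 604 and 596 CPM in B16F10. The log2 fold change was 0.62 ± 0.15 (SE), 0.99 ± 0.030, and 1.46 ± 0.030, which is 1.53-fold, 1.98-fold, and 2.76-fold. The B16 lines lay close together before treatment, whereas both treated B16F10 libraries stood well above both treated B16F0 libraries.

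Klf2, an activator that maintains endothelial and T cell quiescence, was lower with SX-682 in every line. Its level went from 29.2 and 36.5 to 26.4 and 26.3 CPM in Melan-A, from 4 and 3.57 to 0.820 and 1.23 CPM in B16F0, and from 1.46 and 2.19 to 1.19 and 0.923 CPM in B16F10. The log2 fold change was -0.32 ± 0.093, -1.93 ± 0.20, and -0.79 ± 0.22. The fall in Melan-A was not called without control replicate 2 or with DESeq2, and the fall in B16F10, which rests on 54 to 140 counts, was not called without control replicate 2 or without SX-682 replicate 2.

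Klf4 was higher with SX-682 in Melan-A and B16F10 and lower in B16F0. In Melan-A it went from 42.2 and 42.9 to 68.0 and 68.4 CPM (log2 fold change 0.68 ± 0.049), and in B16F10 from 2.05 and 2.16 to 3.08 and 3.11 CPM (0.56 ± 0.11). In B16F0 it went from 6.81 and 6.69 to 4.84 and 4.92 CPM (-0.47 ± 0.082). Even after treatment, B16F10 stayed below untreated B16F0, and both B16 lines stayed below both Melan-A groups.

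Klf5, an activator of proliferation in epithelia, was higher with SX-682 in the B16 lines from low levels. It went from 1.74 and 2.07 to 3.46 and 3.37 CPM in B16F0 (log2 fold change 0.85 ± 0.14) and from 0.430 and 0.438 to 1.06 and 0.992 CPM in B16F10 (1.23 ± 0.23). In Melan-A the value was 0.04 ± 0.093 and was not called. Klf7, an activator best known from neurons, was higher in all lines, with log2 fold changes of 0.15 ± 0.044, 0.61 ± 0.051, and 0.56 ± 0.050 in the order Melan-A, B16F0, B16F10. In GENCODE M21, 39.3% of the exonic bases of Klf7 (3196 bases) are shared with the lincRNA Gm26649 on the opposite strand, and the strand setting of the counting is not given in the sources used here, so reads of the 2 genes cannot be told apart.

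Klf3, the CtBP-type repressor, was lower with SX-682 in Melan-A and B16F0. It went from 39.2 and 37.8 to 33.4 and 32.0 CPM in Melan-A (log2 fold change -0.23 ± 0.043) and from 57.3 and 54.7 to 45.6 and 45.8 CPM in B16F0 (-0.29 ± 0.042). In B16F10 the value was 0.03 ± 0.041 and was not called. The opposite-strand gene Gm20033, which shares 404 bases with Klf3, had 3 to 68 counts, against at least 2205 for Klf3.

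Among the Sin3-type repressors, Klf9 and Klf11 were higher in all lines. Klf11, a TGF-beta inducible gene, went from 25.7 and 24.4 to 47.8 and 49.1 CPM in Melan-A, from 17.2 and 16.4 to 23.6 and 20.9 CPM in B16F0, and from 14.8 and 15.6 to 29.2 and 31.2 CPM in B16F10. Its log2 fold change was 0.95 ± 0.056, 0.41 ± 0.064, and 0.99 ± 0.064. Klf9 went from 25.5 and 24.4 to 42.6 and 41.5 CPM in Melan-A, from 26.2 and 25.9 to 33.2 and 36.3 CPM in B16F0, and from 11.5 and 10.8 to 19.9 and 22.1 CPM in B16F10. Its log2 fold change was 0.75 ± 0.056, 0.41 ± 0.058, and 0.91 ± 0.068. For both genes B16F0 had the smallest fold change.

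Klf10, a relative of Klf11 with a Sin3-binding domain, moved in opposite directions. It went from 83.8 and 83.0 to 148 and 148 CPM in Melan-A (log2 fold change 0.83 ± 0.035), from 45.3 and 45.7 to 24.0 and 22.7 CPM in B16F0 (-0.96 ± 0.044), and from 44.4 and 47.0 to 40.2 and 42.2 CPM in B16F10 (-0.15 ± 0.041). The value in B16F10 was not called without control replicate 2. Untreated B16F0 and B16F10 thus overlapped for Klf10, while the treated libraries did not. Klf13, which regulates cytokine genes in T cells, had log2 fold changes of 0.17 ± 0.034, 0.13 ± 0.037, and 0.08 ± 0.037. Its call in B16F0 was lost without control replicate 2 or without SX-682 replicate 1, and B16F10 was not called.

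**Figure D4:**
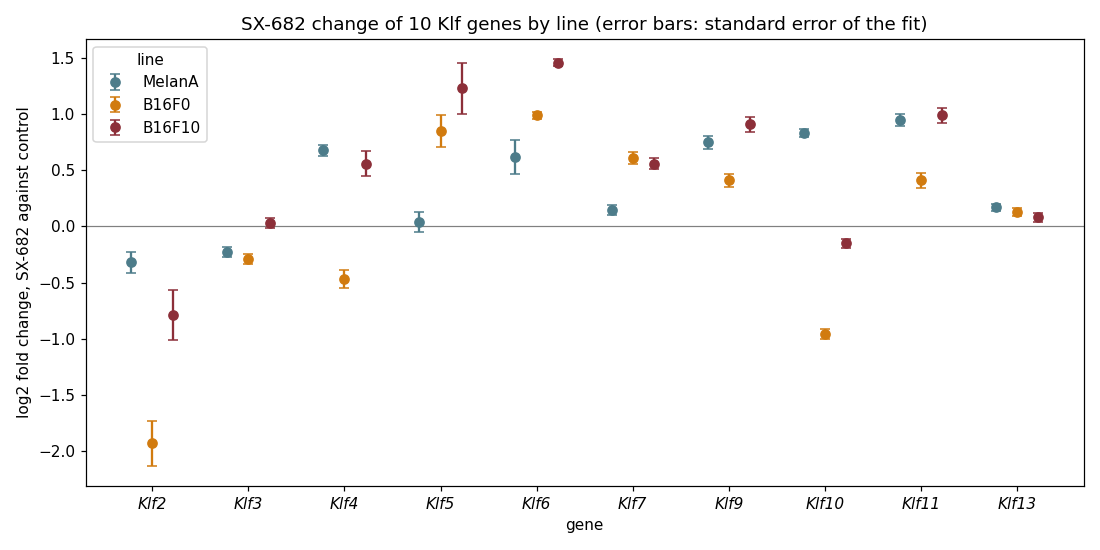
Log2 fold change of each member with SX-682 against control in the 3 lines, with the standard error of the fit as bars. Klf6, Klf7, Klf9, and Klf11 lie above 0 in every line and Klf2 below it, while Klf10 lies at 0.83 in Melan-A and at -0.96 in B16F0.

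The SX-682 change differed among the 3 lines for 9 of 10 members, all but Klf13, beside 47.4% of all genes. The members were selected on these changes, so nothing is read from this count. The spread of the log2 fold change over the lines was widest for Klf10 (1.79) and Klf2 (1.61), followed by Klf5 (1.19) and Klf4 (1.15). Klf4 and Klf10 were the members called in opposite directions in different lines. Over the 6 groups, the mean level spanned 9.29 log2 units for Klf6, 5 for Klf4, 4.98 for Klf2, 4.94 for Klf5, and 0.82 to 2.67 for the other members, the narrowest being Klf13.

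The genes whose pattern over the 12 libraries was most like that of the widest-ranging members were found by Pearson correlation of log2 CPM among 11685 genes. For Klf6 these were Htatip2 (r = 0.9989) and Lhfpl2 (0.9975), for Klf4 Trim30d (0.997) and Stat2 (0.9945), and for Klf2 Ccm2 (0.9891) and Ccdc120 (0.9883). The libraries fall into 3 lines, so these values mostly describe the difference between lines.

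Of the 7 Klf genes outside the 10, 5 passed the filter, and Klf14 and Klf17 did not. Because the selection left them out, their values are given without p-values too. Klf15, which controls metabolic genes under glucocorticoids, went from 5.34 ± 0.41 to 15.7 ± 0.99 CPM in Melan-A (SD, n = 2), from 11.2 ± 0.75 to 15.7 ± 0.29 CPM in B16F0, and from 10.2 ± 0.15 to 23.7 ± 0.71 CPM in B16F10. Its log2 fold changes of 1.55, 0.49, and 1.22 exceeded those of most members. Klf12, a CtBP-type repressor, changed by 0.32, 0.24, and 0.85, from control levels of 16.4, 11.6, and 1.08 CPM. Klf16 changed by 0.19, -0.23, and -0.35, from 47.2, 32.0, and 36.7 CPM. Klf1 and Klf8 had at most 5.87 CPM in any library. The 10 members made up 77.5% of the summed level per kilobase of all Klf genes in Melan-A controls, 82.8% in B16F0, and 82.7% in B16F10, and 78.1%, 87.8%, and 90% with SX-682.

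Lists of genes that act around these factors were counted with edgeR's quasi-likelihood test and Benjamini-Hochberg adjustment over all genes, and the shares of all genes are those given above. The lists were chosen with earlier results of these data known. Genes named by rule from a list were picked because they were called in the same direction in all 3 lines. Their p-values are therefore a description and not separate support. Of the SP genes, which share the zinc finger domain and GC-box binding of the KLF genes, 6 of the 8 with a row passed the filter. Of these 6, 2, 4, and 3 rose with SX-682 in Melan-A, B16F0, and B16F10, and 0 fell. Sp1 rose in all lines, from 110 to 131 CPM in Melan-A (log2 fold change 0.26 ± 0.035, adjusted p = 3.6e-07 by edgeR), from 92.5 to 191 CPM in B16F0 (1.05 ± 0.036, adjusted p = 2.7e-20), and from 97.9 to 143 CPM in B16F10 (0.54 ± 0.037, adjusted p = 1.2e-13).

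Of 12 corepressors and coactivators, 1, 5, and 3 rose and 9, 5, and 7 fell in Melan-A, B16F0, and B16F10. In all lines, 4 of the 12 fell: the histone deacetylases Hdac1 and Hdac2, which work with Sin3a, the acetyltransferase Kat2b, and the corepressor Ctbp1. Ctbp1 changed by -0.39 ± 0.026, -0.3 ± 0.026, and -0.22 ± 0.026. Hdac1 changed by -0.45 ± 0.033, -0.47 ± 0.035, and -0.36 ± 0.035 (edgeR, largest adjusted p = 3e-10). Kat2b changed by -0.58 ± 0.039, -0.55 ± 0.038, and -0.47 ± 0.037 (largest adjusted p = 4.6e-12). Hdac2 changed by -0.29 ± 0.027, -0.23 ± 0.027, and -0.34 ± 0.028 (largest adjusted p = 3.3e-08).

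Of 9 ubiquitin ligase and related genes named for turnover of KLF proteins, 4, 3, and 5 rose and 2, 3, and 1 fell. Smurf1 and Btrc rose and Siah1b fell in all lines. Btrc, the substrate receptor of an SCF ligase, rose by 0.29 ± 0.039, 0.38 ± 0.040, and 0.68 ± 0.040 (largest adjusted p = 2.4e-07 by edgeR). Siah1b changed by -0.56 ± 0.090, -0.53 ± 0.11, and -0.71 ± 0.10 (largest adjusted p = 2e-04 by edgeR).

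Of 18 genes of signals known to act on KLF genes (the ERK5, MEF2, glucocorticoid, thyroid hormone, TGF-beta, and FOXO pathways, and the serum response factor Srf), 8, 13, and 13 rose and 3, 3, and 3 fell. The transcription factor Mef2c rose from 107 to 177 CPM in Melan-A, from 106 to 185 CPM in B16F0, and from 74.5 to 113 CPM in B16F10, by 0.73 ± 0.033, 0.81 ± 0.034, and 0.61 ± 0.036 (largest adjusted p = 6.2e-15 by edgeR). Foxo3 rose by 0.33 ± 0.028, 0.58 ± 0.029, and 0.59 ± 0.028, and the shared TGF-beta effector Smad4 by 0.32 ± 0.031, 0.38 ± 0.033, and 0.54 ± 0.032. Nr3c1, the glucocorticoid receptor, rose by 0.12, 0.13, and 0.12 and was named after its values were seen.

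Of 15 genes reported as targets of KLF proteins, 6, 4, and 4 rose and 5, 6, and 7 fell. The circadian gene Per1 rose from 56.2 to 96.6 CPM in Melan-A, from 32.5 to 103 CPM in B16F0, and from 24.2 to 49.1 CPM in B16F10 (0.78 ± 0.037, 1.67 ± 0.040, and 1.02 ± 0.044, largest adjusted p = 5.7e-17 by edgeR). The cyclins fell. Ccnd1 went from 946 to 639, from 291 to 168, and from 833 to 386 CPM (-0.56 ± 0.022, -0.79 ± 0.024, and -1.11 ± 0.023, largest adjusted p = 1.2e-18 by edgeR), and Ccne1 changed by -0.65 ± 0.044, -0.56 ± 0.045, and -1.18 ± 0.044. These comparisons share control libraries with those of the untreated lines.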

How the data were processed

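RNA-seq libraries of total RNA from 3 mouse lines, control or SX-682, were sequenced, with 2 libraries in each of 6 groups. The authors deposited raw read counts per gene for 34513 genes, without normalization. The submitters' processing notes name cutadapt, STAR, DESeq2, and the mm10 build; the counting program and its strand setting are not given in the sources used here. Each of the 12 columns carried the name of its library.

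Totals were 48876982 to 85322092 counts. A floor of 3 counts is 0.033 to 0.062 CPM, and such floors cover counting error only. The main test was edgeR 4.0.16 (R 4.3.3), a quasi-likelihood F-test fitted to the 6 group means over all 12 libraries, with no block. Scaling was by TMM, filterByExpr kept 18338 genes, fold changes used 0.125 as prior count, and calls were made at a Benjamini-Hochberg adjusted p of 0.05. The standard error is the absolute log2 fold change divided by the square root of F. CPM used TMM-scaled totals, and levels per kilobase used the union of exons (GENCODE M21). The fit was tested on simulated data of 17693 genes, with 47 to 49 changed genes tested at each fold. Of these, 61.2% to 65.3% were recovered at 1.5-fold, 64.6% to 75% at 3-fold, and 85.1% to 93.6% at 4-fold. Of the unchanged genes, 8 to 17 were called in a line. Far fewer genes were changed there than were called in the data, so the simulation does not show how the fit performs on them. Replicate counts differed by more than sampling noise in every group (chi-square 2.86 to 5.29 per gene). The coefficient of variation beyond counting noise in the fit was 2.78%. This spread may be technical, so the p-values may not cover the spread between separate cultures.

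The members and the gene lists were chosen with earlier results of these data known. Beyond the 10 members, genes were named by rule: in each list up to 3 genes with a mean log2 CPM of at least 1 called in the same direction in all 3 lines, those with the largest smallest change, and for the 3 widest-ranging members the 2 most correlated genes. Klf16 and the Klf genes at low level, Ctbp1, Nr3c1, and Galk1 were named after values were seen, and the level of Galk1 relative to B16 was computed then. Alternatives were DESeq2 1.42.0, RLE scaling, no count filter, a minimum of 10 counts per library, separate fits, the replicate number as a block, a log2 fold change limit of 0.5, a prior count of 2, the longest transcript as length, and each library left out.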

Additional observations from a re-analysis of the deposited data

Results flagged for a closer look

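The SX-682 change differed among the 3 lines (edgeR's quasi-likelihood F-test of the line-by-treatment terms) for 20 of the 25 named genes tested, including 9 of the 10 Kruppel-like factors, which were selected on such changes. Over all genes tested the share was 47.4%. The other 15 were named because they were called in the same direction in all 3 lines, so nothing is read from the count. The values are the range over the lines of the log2 fold change. Among the 10 it was 1.79 for Klf10, 1.61 for Klf2, 1.19 for Klf5, 1.15 for Klf4, 0.85 for Klf6, 0.58 for Klf11, 0.5 for Klf9, 0.45 for Klf7, and 0.33 for Klf3. Klf15 and Klf12 had ranges of 1.06 and 0.61, and Sp1 of 0.79. Among ubiquitin ligase genes the range was 0.39 for Btrc and 0.22 for Smurf1. Among upstream signals it was 0.26 for Foxo3, 0.21 for Smad4, and 0.2 for Mef2c. Among target genes it was 0.89 for Per1, 0.62 for Ccne1, and 0.54 for Ccnd1. For Klf4 and Klf10 the direction differed between lines, and for the other genes named here the size differed or a line was not called.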

How the results depend on the processing

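With a log2 fold change limit of 0.5, 5 members in place of 9 were called after SX-682 in Melan-A and 5 in place of 10 in B16F0. Leaving out 1 library in turn, the number called was 8 to 9 in Melan-A, 9 to 10 in B16F0, and 6 to 8 in B16F10, and for untreated lines 9 to 9, 10 to 10, and 6 to 8; the difference among lines kept 9. Of 510 log2 fold changes of members recomputed under alternatives, 36 moved by more than the replicate SD, the largest by 0.32 (Klf2 in B16F10 without control replicate 2). Of those called in the main test, 0 reversed. Many of the 510 could hardly move, because leaving out a library of 1 line leaves the other lines nearly unchanged. With 2 libraries in a group, leaving 1 out shifts a mean by no more than about the replicate SD. These counts therefore say little about stability. Deviations between libraries of the same replicate number showed no shared shift between treatments (correlations -0.062, 0.014, and -0.038). This cannot show whether the libraries were paired. With the replicate block, 8824, 9150, and 9302 genes were called in the 3 lines in place of 8831, 9187, and 9321. For the difference among lines, 8678 were called in place of 8701. The members called with the block were 9, 10, and 8. The longest transcript as length raised the level of Klf3 2.15-fold and left the highest member the same in 6 of 6 groups, but lower places in the order changed. Members with few counts, such as Klf2 and Klf5 in B16F10, had the widest standard errors.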
